A study of Sus scrofa with 60 samples.

Results

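The genes of lipogenesis and fatty acid desaturation were followed in the liver of neonatal pigs, 10 of the 30335 named genes counted. They encode the enzymes that build fatty acids and put double bonds into them, and the transcription factor that controls many of these enzymes. The genes were FASN, ACACA, ME1, SCD, ELOVL6, FADS1, FADS2, ELOVL2, ELOVL5, and SREBF1. They were chosen by name as members of this pathway, and all 10 passed the filter on low counts. Piglets of mixed Landrace and Hampshire sows, of both sexes, were delivered by cesarean section before term and had either bile duct ligation (BDL), in which the cystic and the common bile duct were tied off, or sham surgery. They were then fed for 14 days, and liver was collected for RNA-Seq. The ENT groups received milk replacer formula by the enteral route (12 ENT-sham and 10 ENT-BDL pigs), after PN at first and a gradual change to full enteral feeds over about the first week. The SLE groups received parenteral nutrition (PN) with a soy-based lipid emulsion, Intralipid (10 SLE-sham and 11 SLE-BDL pigs). The MLE groups received PN with a mixed lipid emulsion, SMOFlipid, which also contains fish oil (9 MLE-sham and 8 MLE-BDL pigs). All pigs carried a jugular catheter. As a model this is a complete and acute obstruction in otherwise healthy newborns, and PN pigs differ from ENT pigs in the route of feeding as well as in the lipid, so these cannot be told apart.

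The liver makes palmitate from acetyl-CoA. ACACA makes malonyl-CoA, FASN joins these units into a saturated chain, and ME1 is a source of the NADPH that the synthesis consumes. ELOVL6 lengthens palmitate to stearate, and SCD puts the first double bond into saturated chains to give oleate and palmitoleate. A separate route, in which FADS2, ELOVL5, FADS1, and ELOVL2 act in turn, converts the essential fatty acids linoleate and linolenate into long polyunsaturated products such as arachidonate and docosahexaenoate. SREBF1 encodes the sterol regulatory element-binding protein that insulin and oxysterols induce in liver, and polyunsaturated fatty acids are known to lower its activity.

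A library held 14469788 to 21374161 counted reads. Levels are given as CPM, counts divided by library sizes after TMM scaling, which evens out differences in composition, as mean ± SD over pigs. A gene passed the test where its p value, from the quasi-likelihood test of edgeR over all 60 pigs and adjusted by Benjamini-Hochberg over 16210 genes, was under 0.05. Fold changes are log2 with their standard error (SE), tests are two-sided, and comparisons that share a group of pigs are not independent. Several libraries stood apart. ENT-sham replicate 2 and ENT-BDL replicate 1 were closer to each other (chi-square per degree of freedom of 1.87) than were the libraries of the other pairs among the 1770 possible (next 15.04), and ENT-sham replicate 2 lay nearer to the ENT-BDL mean than to its own. Of the 60 libraries, 52 lay nearest to the mean of their own group, and the other 8 included 2 SLE-BDL libraries, replicates 8 and 11, nearest to SLE-sham, and 5 PN libraries nearest to the other PN group with the same surgery. In ENT-sham replicate 2 SREBF1, ELOVL2, and ELOVL5 were the lowest, and ME1 the highest, of its group. The members' calls on ENT are therefore also given with this library and ENT-BDL replicate 1 left out. Of the 208 calls of the related lists described further on, 201 passed without this pair. A single pig identifier appears on replicates 9 and 10 of SLE-sham, which were counted as separate pigs in the n = 10 of that group. Their counts differed (chi-square per degree of freedom of 31.69), but libraries of the same pig can differ too. Whether they are separate pigs is therefore not known. Every call of a member passed with either of these replicates left out. Each identifier also holds a number with 8 values, of which MLE pigs carry 4, and its meaning is not stated in the sources used here. Among ENT pigs only ENT-sham replicates 11 and 12 and ENT-BDL replicates 8, 9, and 10 carry any of those 4. Fits of MLE against ENT with this number as a block therefore rest directly on these few ENT pigs. Fits with this number as a block are named where they change a call of a member. In the related lists 189 of the 208 calls passed with the block, which also called 32 others, and the block is named there where a printed call was lost.

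Per length of transcript the desaturases were the most abundant members. FADS1 had a mean of 309.6 CPM per kilobase over the 60 pigs, FADS2 227, SCD 203, and FASN 151 CPM per kilobase. ELOVL5 had 80.0, SREBF1 65.6, ELOVL6 39.1, and ELOVL2 37.6 CPM per kilobase. ACACA had 9.44 and ME1 1.23 CPM per kilobase, and ME1 rested on 28 to 160 reads in a library, against 1206 or more for ACACA. On the Sscrofa11.1 assembly FADS2 (chr2:9633941-9666666, minus strand) and FADS1 (chr2:9735425-9747405, plus strand) are neighbors, 68759 bases apart, in a cluster with FADS3. FASN (chr12:922405-937560), ACACA (chr12:38580916-38875067), and SREBF1 (chr12:60733967-60750951) share a chromosome without being neighbors, as do ELOVL2 (chr7:7651707-7732353) and ELOVL5 (chr7:46860768-46932945). SCD lies at chr14:111461560-111478033, ELOVL6 at chr8:112038670-112190079, and ME1 at chr1:82799878-82989895.

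The members did not move as 1 block with either BDL or diet. With BDL, ME1 rose on each diet, ELOVL2 fell on ENT and SLE, and on ENT SREBF1 fell and FADS1 rose. In sham pigs SCD, FADS1, FADS2, and ELOVL2 were higher on PN with the soy-based emulsion than on formula. SREBF1 was lower on PN with the mixed emulsion than on formula. The FADS2 call was lost in some of the alternative fits. FASN, ACACA, ELOVL6, and ELOVL5 passed the test in none of the 12 comparisons. The thresholds of an adjusted p under 0.05 together with more than a 2-fold change were met by 0 members in all 12 comparisons, and the largest absolute log2 fold change was 0.93. Of all tested genes 3.41% (ENT), 1.47% (SLE), and 3.73% (MLE) met them in BDL against sham. In BDL pigs they were met by 3.12% (SLE against ENT), 3.2% (MLE against ENT), and 0.395% (MLE against SLE). In sham pigs they were met by 5.22% in SLE-sham and 3.71% in MLE-sham against ENT-sham and by 0.45% in MLE-sham against SLE-sham. For the differences between diets in the response to BDL the shares were 1.07% (SLE minus ENT), 0.0308% (MLE minus ENT), and 0.197% (MLE minus SLE).

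**Figure D1:**
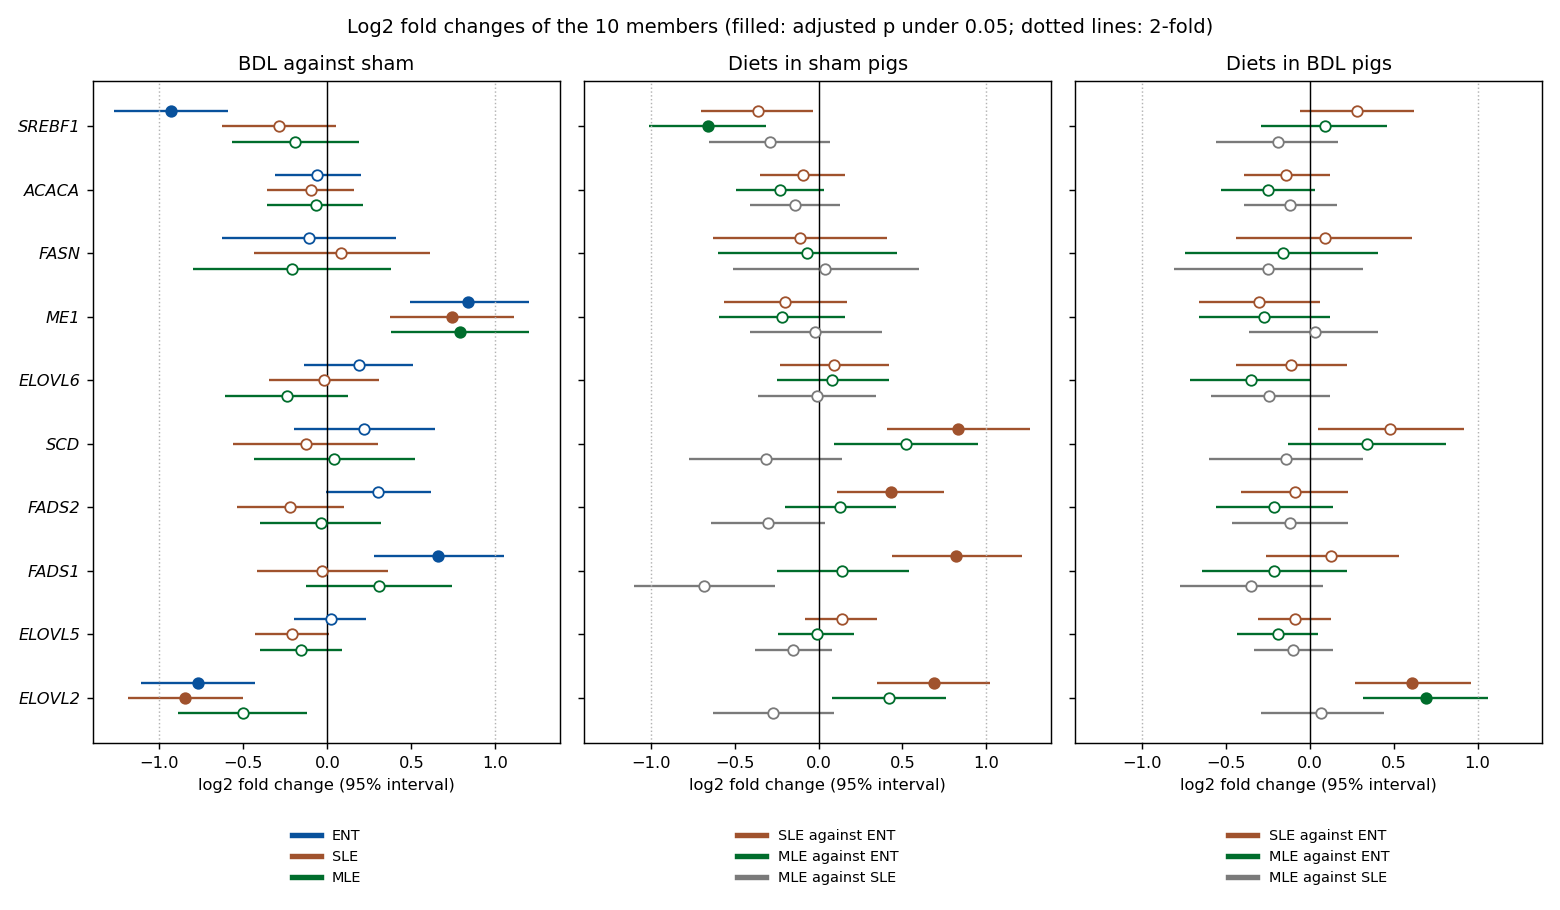
Log2 fold changes (x axis) of the 10 members (y axis) with 95% intervals, for BDL against sham on each diet, diets in sham pigs, and diets in BDL pigs; filled points passed the test. SREBF1 in ENT (-0.93) and ELOVL2 in SLE (-0.85) lie farthest to the left, and ME1 lies to the right of 0 on all 3 diets.

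Comparing BDL with sham on the same diet asks what obstruction changes. In ENT-BDL against ENT-sham, 4 of the 10 members passed, 2 higher and 2 lower, where 17.4% of all tested genes passed, 8.78% higher and 8.66% lower. In SLE-BDL against SLE-sham, 2 members passed, 1 in each direction, where 4.54% of all genes passed, 2.86% higher and 1.68% lower. In MLE-BDL against MLE-sham, 1 member passed, ME1, where 14.4% of all genes passed. The median log2 fold change of the 10 members was 0.10 on ENT, -0.12 on SLE, and -0.12 on MLE, and that of all tested genes 0.00, 0.00, and -0.01.

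SREBF1, the regulator, was highest in ENT-sham. Its level in ENT-sham pigs had a lowest value of 184, a median of 422, and a highest value of 521 CPM (409.9 ± 97.8 CPM, n = 12). In ENT-BDL it was 58.3, 215, and 379 CPM (215 ± 86.5 CPM, n = 10). All 10 ENT-BDL pigs lay below the ENT-sham median and 3 lay below the lowest ENT-sham pig, replicate 2. Without the matching pair the lowest ENT-sham pig was at 308 CPM, and 8 of the 9 remaining ENT-BDL pigs lay below it. SREBF1 fell 1.91-fold (log2 fold change -0.93, SE 0.17, edgeR adjusted p = 6.49e-05). Leaving out the matching pair of ENT libraries gave -0.98 (adjusted p = 1.34e-05). On PN the means of sham and BDL pigs lay closer together. SREBF1 was 222, 338, and 403 CPM in SLE-sham (318 ± 58.3 CPM, n = 10) and 198, 245, and 388 CPM in SLE-BDL (261 ± 55.9 CPM, n = 11). It was 182, 263, and 371 CPM in MLE-sham (259.7 ± 61.3 CPM, n = 9) and 158, 245, and 273 CPM in MLE-BDL (228 ± 43.2 CPM, n = 8). Of the SLE-BDL pigs 10 of 11 lay below the SLE-sham median, and of the MLE-BDL pigs 7 of 8 lay below the MLE-sham median. The ranges overlapped, and BDL against sham did not pass on SLE (log2 fold change -0.29, 95% interval -0.63 to 0.05, edgeR adjusted p = 0.377) or MLE (-0.19, -0.57 to 0.19, edgeR adjusted p = 0.563). Against ENT-sham, with which they share the ENT-sham pigs, MLE-sham was lower (log2 fold change -0.66, SE 0.17, edgeR adjusted p = 0.00408, 9 of 9 pigs below the ENT-sham median, and -0.73 without the matching pair), and SLE-sham did not pass (-0.36, SE 0.17, adjusted p = 0.102, 10 of 10 pigs below that median). The SLE-sham difference passed when the matching pair was left out (-0.44, adjusted p = 0.0354) and with the identifier number as a block (-0.59, adjusted p = 0.0102).

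The difference of SREBF1 between diets in its response to BDL was tested directly. The response on SLE minus that on ENT was 0.64 (SE 0.24, unadjusted p = 0.00945, edgeR adjusted p = 0.152), and that on MLE minus that on ENT was 0.74 (SE 0.25, unadjusted p = 0.00478, adjusted p = 0.307). Neither passed, so a smaller fall of SREBF1 on PN was not shown. With the identifier number as a block the SLE minus ENT difference was 0.85 (adjusted p = 0.0474).

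FASN and ACACA, the synthase and the carboxylase that are known targets of this regulator, passed in no comparison. FASN was 509.8, 1229, and 2336 CPM in ENT-sham (1288 ± 471 CPM) and 296, 1076, and 2344 CPM in ENT-BDL (1192 ± 553 CPM). The ranges were nearly the same, and the log2 fold change was -0.11 with a 95% interval of -0.63 to 0.41. In SLE-BDL FASN ran from 529 to 3683 CPM around a median of 989 CPM (1265 ± 847 CPM), and in SLE-sham from 585 to 1906 CPM (median 1242, 1193 ± 417 CPM). MLE-sham (535, 1299, and 2022 CPM, 1231 ± 530.1 CPM) and MLE-BDL (606, 1130.1, and 1350.1 CPM, 1065 ± 234 CPM) overlapped with all other groups. The order of the FASN means, from ENT-sham over SLE-BDL, MLE-sham, SLE-sham, and ENT-BDL to MLE-BDL, held no neighbors that differed by more than the larger SD of the pair. The place of SLE-BDL rested on replicate 7 (3683 CPM), without which its mean was 1023 ± 286 CPM (n = 10), below the other 5 means, and the log2 fold change against SLE-sham went from 0.08 to -0.22 (edgeR adjusted p = 0.688). The 95% intervals of FASN reached from -0.81 to 0.61 over the 9 comparisons of groups.

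ACACA varied less. Its means fell within 101 to 125 CPM in all 6 groups, highest in ENT-sham (125 ± 34.2 CPM) and lowest in MLE-BDL (101 ± 6.25 CPM). The lowest ACACA value of a pig was 73.2 CPM, in MLE-sham, and the highest 218 CPM, in ENT-sham. BDL against sham gave log2 fold changes of -0.06 on ENT, -0.10 on SLE, and -0.07 on MLE, with intervals that stayed between -0.36 and 0.21. With the identifier number as a block ACACA was lower in MLE-sham than in ENT-sham (-0.44, edgeR adjusted p = 0.0314) and lower in MLE-BDL than in ENT-BDL (-0.46, adjusted p = 0.035), against -0.23 (adjusted p = 0.205) and -0.25 (adjusted p = 0.222) without it. The values with the block rest directly on the few ENT pigs that share a number with MLE pigs.

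**Figure D2:**
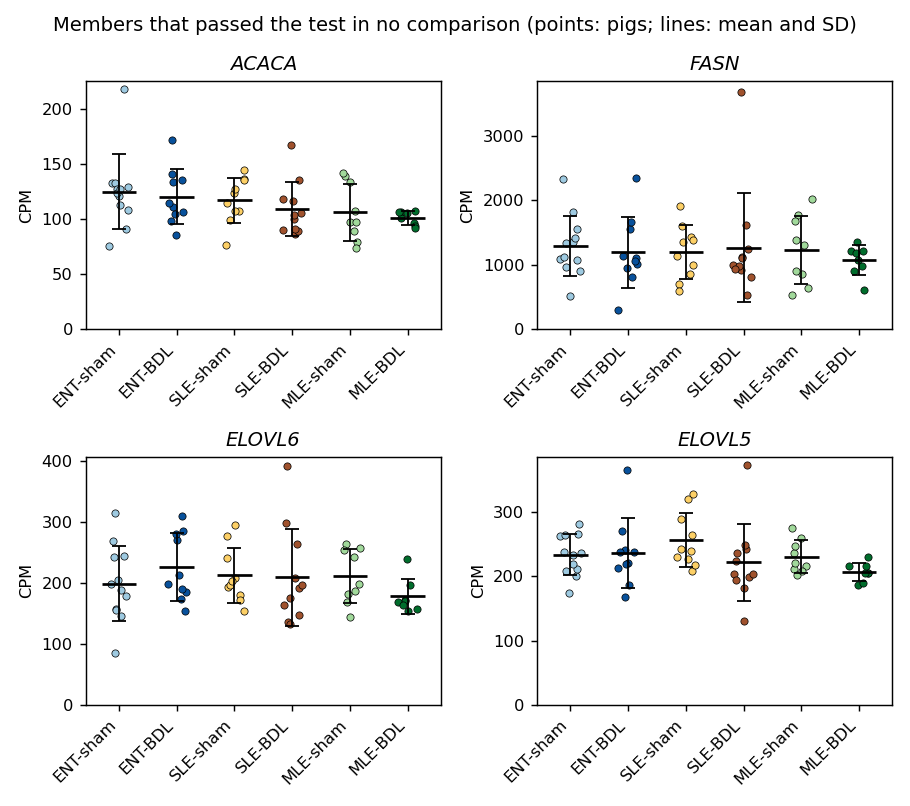
Levels in CPM (y axis, from 0) of ACACA, FASN, ELOVL6, and ELOVL5 in each pig of the 6 groups (x axis), with the group mean and SD. The 6 groups overlap for each gene, and SLE-BDL replicate 7, at 3683 CPM, is the highest pig for FASN.

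ME1, the cytosolic malic enzyme, was the member that BDL raised on each diet. In ENT-sham its lowest, median, and highest values were 2.06, 3.24, and 5.62 CPM (3.46 ± 1.02 CPM), and in ENT-BDL 3.58, 6.06, and 8.33 CPM (6.22 ± 1.52 CPM). All 10 ENT-BDL pigs lay above the ENT-sham median and 8 lay above the highest ENT-sham pig. The rise was 1.80-fold, or 0.84 on the log2 scale (SE 0.18, edgeR adjusted p = 4.16e-04; 0.93 with adjusted p = 1.11e-04 without the matching pair). In SLE-sham ME1 was 1.98, 2.50, and 6.45 CPM (3.02 ± 1.32 CPM) and in SLE-BDL 3.39, 4.82, and 7.86 CPM (5.04 ± 1.22 CPM). Every SLE-BDL pig was above the SLE-sham median, although 3 of the 10 sham pigs, replicates 3, 6, and 8, lay within the BDL range (log2 fold change 0.74, SE 0.19, edgeR adjusted p = 0.0122). In MLE-sham ME1 was 1.83, 2.76, and 4.80 CPM (2.97 ± 1.06 CPM) and in MLE-BDL 3.499, 5.06, and 7.07 CPM (5.14 ± 1.20 CPM). All 8 MLE-BDL pigs were above the MLE-sham median (log2 fold change 0.79, SE 0.20, edgeR adjusted p = 0.00497). In the order of the 6 means the 3 BDL groups stood above the 3 sham groups, and only the step from SLE-BDL to ENT-sham was larger than the larger SD of the neighbors. The response to BDL differed between diets by -0.10 (SLE minus ENT, 95% interval -0.62 to 0.41), -0.06 (MLE minus ENT, -0.60 to 0.49), and 0.05 (MLE minus SLE, -0.50 to 0.60).

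ELOVL6, which turns palmitate into stearate, had group means between 178 and 226 CPM, with the lowest in MLE-BDL (178 ± 28.3 CPM) and the highest in ENT-BDL (226 ± 55.2 CPM). No neighboring means in its order differed by more than the larger SD. BDL against sham gave 0.19 (95% interval -0.14 to 0.51) on ENT, -0.02 (-0.35 to 0.31) on SLE, and -0.24 (-0.61 to 0.12) on MLE.

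SCD, the stearoyl-CoA desaturase, was higher on PN with the soy-based emulsion than on formula in sham pigs. The comparison of diets in sham pigs asks what differs between diets without obstruction. Against ENT it holds the feeding route as well as the lipid. Here 4 of 10 members passed in SLE-sham against ENT-sham, each of them higher, where 27.5% of all tested genes passed, 13.7% higher and 13.8% lower. In ENT-sham SCD was 467, 834, and 1477 CPM (864 ± 252 CPM), and in SLE-sham 656, 1531, and 2538 CPM (1540.4 ± 586 CPM). Of the 10 SLE-sham pigs, 9 lay above the ENT-sham median and 5 above the highest ENT-sham pig (1.78-fold, log2 fold change 0.83, SE 0.21, edgeR adjusted p = 0.0018, and 0.80 without the matching pair). In MLE-sham SCD was 681, 1031, and 2206 CPM (1239.5 ± 533 CPM), and 6 of 9 pigs exceeded the ENT-sham median (0.52, SE 0.22, edgeR adjusted p = 0.0755). MLE-sham and SLE-sham overlapped over almost their whole range (-0.31, 95% interval -0.77 to 0.14). Among BDL pigs SCD was 628, 985, and 1406 CPM in ENT-BDL, 704, 1379, and 2444 CPM in SLE-BDL, and 704, 1302, and 1676 CPM in MLE-BDL. Those groups overlapped, and neither SLE-BDL (0.48, SE 0.22, edgeR adjusted p = 0.108) nor MLE-BDL (0.34, SE 0.23, adjusted p = 0.343) passed against ENT-BDL. BDL against sham gave 0.22 (95% interval -0.20 to 0.64), -0.13 (-0.56 to 0.30), and 0.04 (-0.44 to 0.52) on ENT, SLE, and MLE. Without SLE-BDL replicate 7 the value on SLE was -0.24 (edgeR adjusted p = 0.594).

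FADS1 and FADS2, the front-end desaturases of the polyunsaturated route, rose with SLE in sham pigs, and FADS1 rose with BDL on ENT. FADS1 was 143, 281, and 419.9 CPM in ENT-sham (285 ± 89.1 CPM), 285, 536, and 654 CPM in SLE-sham (505 ± 122 CPM), and 197, 308, and 441 CPM in MLE-sham (315 ± 76.6 CPM). All 10 SLE-sham pigs lay above the ENT-sham median, and 7 lay above the highest ENT-sham pig (1.77-fold, log2 fold change 0.82, SE 0.19, edgeR adjusted p = 7.47e-04, and 0.87 without the matching pair). All 9 MLE-sham pigs lay below the SLE-sham median, but the difference from SLE-sham did not pass over all pigs (log2 fold change -0.68, SE 0.21, unadjusted p = 0.00185, edgeR adjusted p = 0.10). It passed where only these groups entered the fit (-0.68, adjusted p = 0.0289) and was smaller with the identifier number as a block (-0.43, adjusted p = 0.447). MLE-sham differed from ENT-sham by 0.14 (95% interval -0.25 to 0.54). No other member had an unadjusted p under 0.05 in MLE-sham against SLE-sham, none passed by edgeR or DESeq2, and 0.944% of all genes passed.

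In ENT-BDL FADS1 was 345, 416, and 596 CPM (450.5 ± 88.2 CPM). All 10 pigs exceeded the ENT-sham median and 5 exceeded the highest ENT-sham pig (1.58-fold, log2 fold change 0.66, SE 0.19, edgeR adjusted p = 0.0114; 0.73 with adjusted p = 0.00668 without the matching pair). In SLE-BDL FADS1 ran from 218 to 1102 CPM (median 481, 495 ± 259 CPM), a range that held the whole SLE-sham range, and in MLE-BDL from 274 to 524 CPM (median 389.9, 389 ± 89.7 CPM). BDL against sham gave -0.03 (95% interval -0.42 to 0.36) on SLE and 0.31 (-0.13 to 0.74) on MLE. Without SLE-BDL replicate 7 the value on SLE was -0.22 (edgeR adjusted p = 0.573). The response of FADS1 on SLE minus that on ENT was -0.69 (SE 0.28, unadjusted p = 0.015, edgeR adjusted p = 0.191). Without SLE-BDL replicate 7, the pig at 1102 CPM, it was -0.88 (adjusted p = 0.0461).

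FADS2 passed in 1 comparison. It was 183, 302, and 435 CPM in ENT-sham (294 ± 70.8 CPM), 221, 442, and 518 CPM in SLE-sham (397 ± 101 CPM), and 205, 328, and 409 CPM in MLE-sham (322 ± 61.9 CPM). In SLE-sham 7 of 10 pigs lay above the ENT-sham median (1.35-fold, log2 fold change 0.43, SE 0.16, edgeR adjusted p = 0.0351). This call was lost without ENT-sham replicate 2 (0.40, adjusted p = 0.0529), without the matching pair (0.40, adjusted p = 0.0506), and with the identifier number as a block (0.29, adjusted p = 0.16). The BDL groups had 254.5, 370.1, and 489 CPM in ENT-BDL (363 ± 71.8 CPM), 156, 279, and 683 CPM in SLE-BDL (341 ± 145 CPM), and 252, 321, and 335.4 CPM in MLE-BDL (314 ± 26.6 CPM). Their ranges overlapped with those of the sham groups, and BDL against sham gave 0.30 on ENT (95% interval -0.01 to 0.62, edgeR adjusted p = 0.191), -0.22 on SLE, and -0.04 on MLE. Without SLE-BDL replicate 7 the value on SLE was -0.37 (edgeR adjusted p = 0.153). With the identifier number as a block the ENT difference was 0.38 (adjusted p = 0.0388).

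ELOVL5 and ELOVL2 lengthen the chains that FADS2 and FADS1 desaturate, and of these ELOVL2 passed in several comparisons and ELOVL5 in none. ELOVL5 had group means between 207 and 257 CPM, highest in SLE-sham (257 ± 42.6 CPM) and lowest in MLE-BDL (207 ± 14.5 CPM), and its largest absolute difference between groups was -0.21 (SLE-BDL against SLE-sham, 95% interval -0.43 to 0.01, edgeR adjusted p = 0.30).

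ELOVL2, which makes the precursors of docosahexaenoate, passed in 5 comparisons, more than any other member. It was 64.3, 148, and 205 CPM in ENT-sham (149 ± 43.0 CPM) and 51.3, 90.8, and 112 CPM in ENT-BDL (87.5 ± 18.3 CPM). All 10 ENT-BDL pigs lay below the ENT-sham median, 1 of 10 lay below the lowest ENT-sham pig, and without the matching pair 8 of 9 did (1.71-fold lower, log2 fold change -0.77, SE 0.17, edgeR adjusted p = 7.87e-04; -0.81 with adjusted p = 2.32e-04 without the matching pair). In SLE-sham it was 169, 238, and 359 CPM (241 ± 53.4 CPM) and in SLE-BDL 73.0, 126, and 234 CPM (134 ± 47.4 CPM). All 11 SLE-BDL pigs lay below the SLE-sham median and 8 below the lowest SLE-sham pig (1.80-fold lower, -0.85, SE 0.17, edgeR adjusted p = 0.00206). In MLE-sham it was 158, 173, and 289 CPM (199.6 ± 51.5 CPM) and in MLE-BDL 86.4, 129, and 226 CPM (141 ± 43.1 CPM). Here 6 of 8 MLE-BDL pigs lay below the lowest MLE-sham pig, and the fall did not pass (-0.50, SE 0.19, unadjusted p = 0.0111, edgeR adjusted p = 0.0677), but it did with the identifier number as a block (-0.50, adjusted p = 0.0172). The responses to BDL differed between diets by -0.08 (SLE minus ENT, 95% interval -0.56 to 0.41), 0.27 (MLE minus ENT, -0.24 to 0.78), and 0.34 (MLE minus SLE, -0.17 to 0.86).

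ELOVL2 was also the member that differed between diets among BDL pigs. When each PN group was set against ENT-BDL, 1 of 10 members passed with SLE-BDL and 1 with MLE-BDL, ELOVL2 each time, where 19.3% and 16.5% of all tested genes passed. SLE-BDL exceeded ENT-BDL 1.53-fold (log2 fold change 0.61, SE 0.17, edgeR adjusted p = 0.00802, 6 of 11 pigs above the highest ENT-BDL pig, and 0.58 without the matching pair). MLE-BDL exceeded ENT-BDL 1.61-fold (0.69, SE 0.19, edgeR adjusted p = 0.00628, 7 of 8 pigs above the highest ENT-BDL pig, and 0.66 without the matching pair). In sham pigs SLE-sham exceeded ENT-sham 1.61-fold (0.69, SE 0.17, edgeR adjusted p = 0.00117, 10 of 10 pigs above the ENT-sham median, and 0.61 without the matching pair), and MLE-sham did not pass (0.42, SE 0.17, adjusted p = 0.0717, 9 of 9 pigs above that median). MLE-BDL and SLE-BDL differed by 0.07 (95% interval -0.29 to 0.44). In MLE-BDL against SLE-BDL no member passed by edgeR or DESeq2, none had an unadjusted p under 0.05, and 0.95% of all genes passed.

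**Figure D3:**
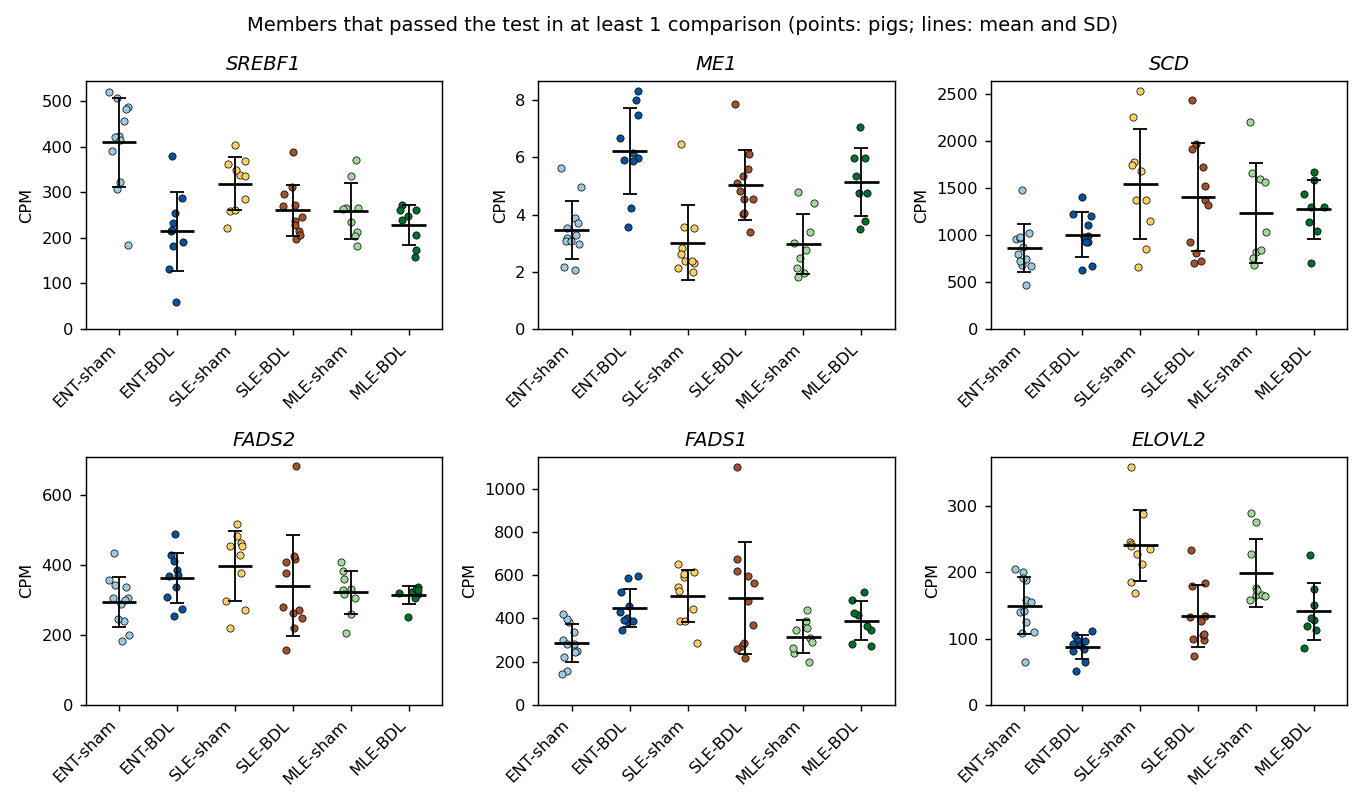
Levels in CPM (y axis, from 0) of the 6 members that passed in at least 1 comparison, in each pig of the 6 groups (x axis), with the group mean and SD. ENT-BDL lies below ENT-sham for SREBF1 and ELOVL2 and above it for ME1 and FADS1, and SLE-sham lies above ENT-sham for SCD, FADS1, FADS2, and ELOVL2.

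In MLE-sham against ENT-sham, 1 of 10 members passed, SREBF1, where 21.1% of all tested genes passed. For the difference between diets in the response to BDL, no member passed in any of the 3 pairs of diets by edgeR or by DESeq2, where 2.28% (SLE minus ENT), 0.0802% (MLE minus ENT), and 0.278% (MLE minus SLE) of all genes passed. An unadjusted p under 0.05 was seen for 3 members in SLE minus ENT (SREBF1, FADS1, and FADS2), for 1 in MLE minus ENT (SREBF1), and for 0 in MLE minus SLE.

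Within groups some members varied together from pig to pig. After the mean of each pig's group was subtracted, log2 CPM of FADS1 and FADS2 correlated at r = 0.85 over the 60 pigs, the closest of the 45 pairs. FASN correlated with ACACA at 0.74, with SCD at 0.70, with FADS1 at 0.60, and with SREBF1 at 0.59. SREBF1 correlated less with ACACA (0.43) and SCD (0.41) and hardly with ELOVL6 (-0.04) and ELOVL5 (-0.04). ME1 (median r of -0.11 with the other members) and ELOVL2 (median r of -0.06) stood outside, although ELOVL2 correlated with ELOVL5 at 0.35 (0.43 without SLE-BDL replicate 7). These are descriptions over pigs that share libraries and scaling. In SLE-BDL replicate 7, 7 of the 10 members (FASN, ACACA, SCD, ELOVL6, FADS1, FADS2, and ELOVL5) had the highest value of the group, and in MLE-sham replicate 6 this held for 6 members. Without SLE-BDL replicate 7, r was lower for 27 of the 45 pairs and higher for 16. FADS1 with FADS2 was then 0.82, FASN with ACACA 0.71, FASN with FADS1 0.53, and FASN with SREBF1 0.61, and the largest change was that of FASN with ELOVL5, from 0.22 to 0.06. The within-group SD of log2 CPM was largest for FASN (0.63, exceeded by 18.2% of tested genes) and smallest for ELOVL5 (0.25), against a median of 0.31 over all tested genes.

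**Figure D4:**
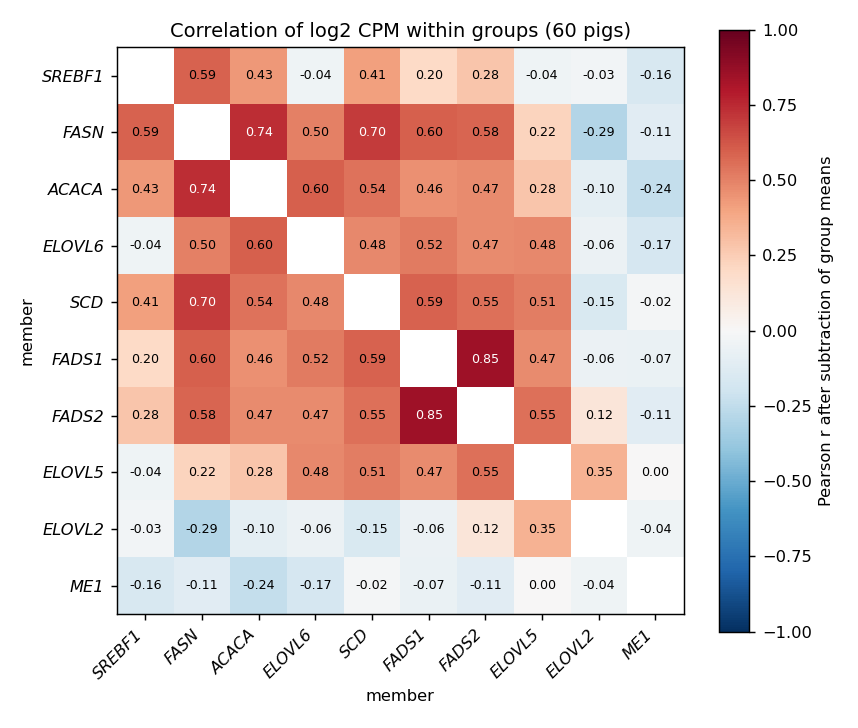
Pearson r of log2 CPM between pairs of members over 60 pigs, after subtraction of each group's mean (both axes list the 10 members; color gives r from -1 to 1). FADS1 with FADS2 (0.85) and FASN with ACACA (0.74) are the closest pairs, and the ME1 and ELOVL2 rows stay near 0 or below with most members.

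Outside the members, the genes whose log2 CPM followed FASN closely over the 60 pigs included LSS (r = 0.70), a cholesterol synthesis enzyme, PNPLA3 (0.69), a lipid droplet protein, ACSS2 (0.66), which makes acetyl-CoA from acetate, and ATP13A2 (0.59). For SCD they were ACSL4 (0.77), which activates polyunsaturated fatty acids, PRUNE2 (0.74), ACAT2 (0.73), EBP (0.72), a sterol isomerase, and ACSS2 (0.69). For FADS2 they were ACSS2 (0.66), SLC6A11 (0.60), PNPLA3 (0.60), FSCN2 (0.59), and EBP (0.59). These r values include the differences between groups.

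The genes around the pathway were counted in 5 lists, and the counts stand beside the shares of all tested genes. In BDL against sham 17.4% of all tested genes passed on ENT, 8.78% higher and 8.66% lower. On SLE 4.54% passed, 2.86% higher and 1.68% lower, and on MLE 14.4% passed. In SLE-sham against ENT-sham 27.5% passed, 13.7% higher and 13.8% lower, and in MLE-sham against ENT-sham 21.1% passed. Of 16 genes that supply carbon and NADPH, 1 rose and 9 fell in ENT-BDL against ENT-sham (median log2 fold change -0.26), 0 rose and 1 fell on SLE (-0.07), and 1 rose and 5 fell on MLE (-0.25). The falls were led on ENT by KHK, which phosphorylates fructose (-1.72, SE 0.28, edgeR adjusted p = 1.05e-05, 37.9 ± 24.5 CPM in ENT-sham and 11.5 ± 2.74 CPM in ENT-BDL), and by THRSP, a lipogenic nuclear protein (-1.0, SE 0.29, adjusted p = 0.0106). On MLE they were led by THRSP (-1.68, SE 0.33, edgeR adjusted p = 2.60e-04) and by MLXIPL, the carbohydrate response factor ChREBP (-0.93, SE 0.16, adjusted p = 5.46e-05). MLXIPL also fell on ENT (-0.69, SE 0.14, adjusted p = 4.14e-04). SLC25A1, the citrate carrier, fell on all 3 diets (-0.37, -0.41, and -0.32 on ENT, SLE, and MLE). ACLY, which splits that citrate into acetyl-CoA, rose on ENT (0.47, SE 0.15, adjusted p = 0.0218).

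Between diets in sham pigs the same list had genes on both sides. In SLE-sham against ENT-sham 4 rose and 6 fell, and in MLE-sham against ENT-sham 4 rose and 5 fell (medians -0.09 and -0.11). In SLE-sham the falls included those of enzymes of fructose and glucose breakdown, TKFC (-1.72, SE 0.16, edgeR adjusted p = 8.10e-13), KHK (-1.60, SE 0.28, adjusted p = 8.50e-06), and PKLR (-1.13, SE 0.16, adjusted p = 9.00e-08). In MLE-sham they included KHK (-1.90, SE 0.29, adjusted p = 1.82e-06), TKFC (-1.41), and PKLR (-1.30). Genes that rose in both included ACLY (0.56 and 0.61), ACSS2 (0.61 and 0.69), and SLC25A1 (0.50 and 0.59), of which ACSS2 in SLE-sham did not pass with the identifier block (0.48, adjusted p = 0.0668).

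Of the 10 tested genes of the elongation cycle and the other elongases and desaturases (12 of 14 found), 2 rose and 1 fell in ENT-BDL, 1 rose in SLE-BDL, and 2 rose and 1 fell in MLE-BDL, each against its sham group (medians 0.21, 0.04, and 0.02). ELOVL7, an elongase of saturated chains, rose on ENT (0.86, SE 0.18, edgeR adjusted p = 3.89e-04) and MLE (1.03, SE 0.21, adjusted p = 2.83e-04), and ELOVL1, which makes very long chains, rose on all 3 diets (0.27, 0.33, and 0.31). With the identifier block ELOVL1 did not pass on SLE (0.22, edgeR adjusted p = 0.137). HACD3, a dehydratase of the cycle, fell on ENT (-0.28) and MLE (-0.35). In SLE-sham against ENT-sham 4 rose, HACD2, HSD17B12, FADS6, and ELOVL1, and HACD3 fell (-0.41), and in MLE-sham HACD2 rose (0.41). FADS6 did not pass with the identifier block (0.20 against 0.45, adjusted p = 0.426).

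Of 19 tested genes of fatty acid activation and triglyceride assembly, 1 rose and 6 fell in ENT-BDL against ENT-sham, 0 and 3 on SLE, and 0 and 4 on MLE (medians -0.27, -0.08, and -0.21). DGAT2, which makes triglyceride from newly built fatty acids, fell on ENT (-0.67, SE 0.20, edgeR adjusted p = 0.0147) and MLE (-1.13, SE 0.23, adjusted p = 4.16e-04). In sham pigs 7 rose and 5 fell with SLE and 6 rose and 5 fell with MLE against ENT (medians 0.05 and 0.10). The lipid droplet coat gene PLIN2 rose with both (1.46, SE 0.17, edgeR adjusted p = 1.41e-09 with SLE, and 0.96, SE 0.17, adjusted p = 3.03e-05 with MLE), as did ACSL1, which activates long-chain fatty acids (1.03 and 0.76), and DGAT2 fell with both (-1.06 and -0.74).

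The list of SREBP and LXR control had 22 genes. In ENT-BDL against ENT-sham 1 rose and 7 fell, on SLE 0 and 1, and on MLE 0 and 4 (medians -0.13, -0.02, and -0.12). NR1H3, the liver X receptor that drives SREBF1, fell on all 3 diets (-0.26, -0.24, and -0.41, edgeR adjusted p = 0.0042, 0.0328, and 1.05e-04). In sham pigs 5 rose and 7 fell with SLE and 3 rose and 6 fell with MLE against ENT (medians -0.03 and -0.04). INSIG1 and INSIG2, which retain SREBP in the endoplasmic reticulum, went in opposite directions. INSIG1 rose (0.73, SE 0.17, adjusted p = 5.57e-04 with SLE, and 1.01, SE 0.17, adjusted p = 1.05e-05 with MLE) and INSIG2 fell (-0.97, SE 0.14, adjusted p = 2.63e-07, and -1.06, SE 0.15, adjusted p = 1.83e-07). IRS2 and INSR, which carry the insulin signal, fell with both (IRS2 -0.70 and -0.81, INSR -0.41 and -0.39).

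Of 20 tested genes of cholesterol synthesis and LDL uptake, which SREBF2 mainly controls, 13 rose with SLE and 15 with MLE in sham pigs against ENT-sham, and none fell (medians 0.40 and 0.53). Of all tested genes 13.7% were higher with SLE, and 21.1% passed in either direction with MLE. In ENT-BDL against ENT-sham 9 rose and none fell (median 0.28), and HMGCS1, which makes HMG-CoA, rose 1.63 on the log2 scale (SE 0.20, edgeR adjusted p = 6.30e-08), while SREBF1 fell in the same pigs. On SLE none passed with BDL by edgeR or DESeq2 (2 with an unadjusted p under 0.05), and on MLE 2 fell, among them MVK (-0.53), which phosphorylates mevalonate. The difference between diets in the response to BDL passed for 6 genes of this list in SLE minus ENT and for 2 in MLE minus ENT, each lower (HMGCS1 -1.76, SE 0.29, edgeR adjusted p = 2.76e-04, in SLE minus ENT). Of all tested genes 2.28% and 0.0802% passed in these differences. In SLE minus ENT it also passed, higher, for KHK (1.68, SE 0.39, adjusted p = 0.0095), GPAT4, a glycerol-3-phosphate acyltransferase (0.41), and INSR (0.48).

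Among BDL pigs the lists were counted in the same way. Of all tested genes 19.3% passed in SLE-BDL and 16.5% in MLE-BDL against ENT-BDL. Between the PN groups 0.944% passed in sham pigs and 0.95% in BDL pigs. Against ENT-BDL, with SLE-BDL and MLE-BDL in this order, 3 genes rose and 3 fell in each for carbon and NADPH supply, and SLC25A1 rose (0.46 and 0.64). In the elongation list 1 gene rose with SLE, ELOVL1 (0.33), and with MLE none passed by edgeR or DESeq2 (2 with an unadjusted p under 0.05), although ELOVL1 passed with the identifier block (0.36, edgeR adjusted p = 0.0126, against 0.24 without it). In the triglyceride list 5 rose and 0 fell, then 5 rose and 4 fell, with DGAT2 lower on MLE (-1.20, SE 0.23, edgeR adjusted p = 1.11e-04). In the control list 3 rose and 2 fell, then 1 rose and 3 fell, and in the cholesterol list 1 rose and 1 fell, then 0 passed by edgeR or DESeq2 (5 with an unadjusted p under 0.05). Between the PN groups edgeR without a block called none of the 87 tested genes of the 5 lists, in sham or in BDL pigs. An unadjusted p under 0.05 was seen for 13 of them in MLE-sham against SLE-sham and 10 in MLE-BDL against SLE-BDL, and DESeq2 called 1 and 2. With the identifier block edgeR called 2 and 1, and without the matching pair of ENT libraries 0 and 1.

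**Figure D5:**
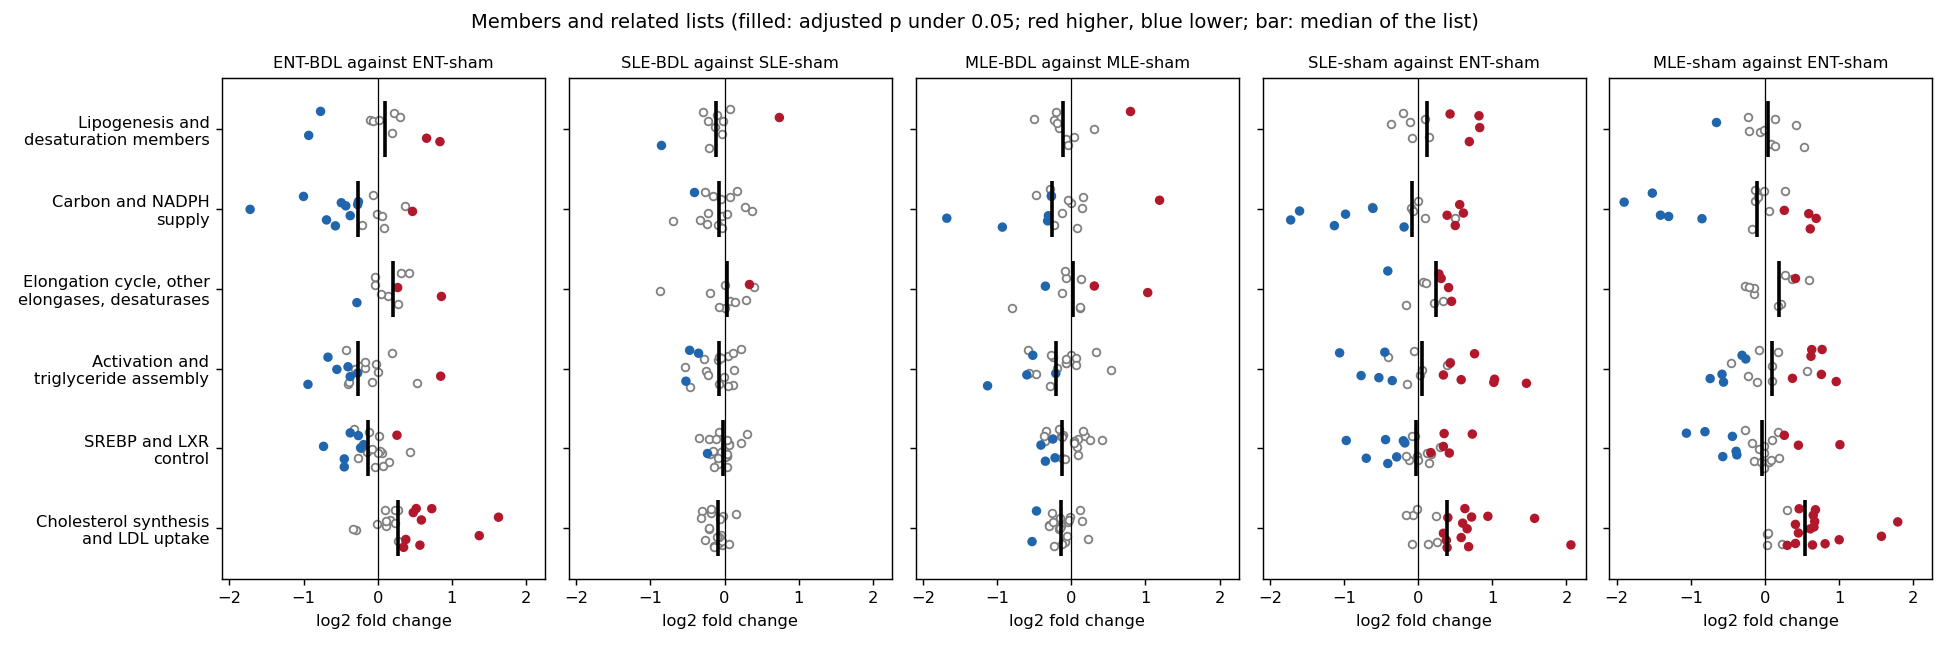
Log2 fold changes (x axis) of the members and of the genes of 5 related lists (rows) in 5 comparisons, with filled red points for genes that passed higher, filled blue points for genes that passed lower, and a bar at the list's median. The cholesterol list lies to the right of 0 in ENT-BDL and in both PN sham groups (medians 0.28, 0.40, and 0.53), and the carbon and NADPH list holds genes on both sides.

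Marker genes of liver cell types differed between groups. The shares of all tested genes given above for each comparison stand beside their counts too. The summed level of 7 hepatocyte markers was 114951 ± 20303 CPM in ENT-sham and 91754 ± 16354 CPM in ENT-BDL, 104008 ± 9192 and 102875 ± 20968 CPM in SLE-sham and SLE-BDL, and 110127 ± 18622 and 78719 ± 7629.7 CPM in MLE-sham and MLE-BDL. That of 7 cholangiocyte markers was 75.9 ± 65.9 and 217 ± 50.3 CPM on ENT (41.3 to 283 and 158 to 306 CPM), 179.8 ± 47.9 and 229.6 ± 71.2 CPM on SLE, and 84.0 ± 13.6 and 219 ± 60.5 CPM on MLE. Of these 7, 5 rose on ENT, 1 on SLE, and 6 on MLE, and of the 7 hepatocyte markers 3 fell and 1 rose on ENT, none passed on SLE, and 4 fell on MLE. The 7 stellate and fibroblast markers summed to 1442 ± 659 and 2402 ± 713 CPM on ENT, 1869.8 ± 632 and 2755 ± 1574 CPM on SLE, and 1576 ± 438 and 3349.8 ± 1097 CPM on MLE (1, 0, and 3 rose and 1, 0, and 1 fell), and the summed levels of the 7 Kupffer cell markers and 5 endothelial markers had lower means in each BDL group than in its sham group. Of the Kupffer list 1 rose and 2 fell on ENT and on MLE, and 1 rose on SLE. The gene that rose on each diet was MARCO, a scavenger receptor (8.42 to 23.6, 13.2 to 26.6, and 7.14 to 15.4 CPM). Of the endothelial list 2 fell on ENT, 0 passed on SLE, and 1 fell on MLE. On ENT these markers moved with the BDL results given above for ME1, ELOVL2, SREBF1, and FADS1, and on MLE, where the adipocyte markers FABP4 (1.79) and PLIN1 (-0.64) also passed, with that for ME1. On SLE, where ME1 and ELOVL2 passed, KRT7 (1.45) and MARCO passed, and no hepatocyte, stellate, or endothelial marker did. The part of the markers in these results was not tested. Markers also differed between diets in sham pigs. In SLE-sham against ENT-sham, the comparison of the SCD, FADS1, FADS2, and ELOVL2 results, 1 hepatocyte marker rose and 3 fell, 2 cholangiocyte markers rose, 2 Kupffer cell markers rose and 1 fell, 1 stellate, 2 endothelial, and 1 exocrine pancreas marker fell, and 1 adipocyte marker, the fatty acid binding protein gene FABP4, rose (0.383 to 4.02 CPM). In MLE-sham against ENT-sham, the comparison of the SREBF1 result, 1 hepatocyte marker rose and 1 fell, 1 cholangiocyte marker rose, and 1 Kupffer cell marker fell. In both comparisons of the ELOVL2 results among BDL pigs 1 hepatocyte marker fell, and FABP4 rose (2.64 with SLE and 1.45 with MLE). With SLE 1 stellate marker also fell, and with MLE 1 cholangiocyte marker rose and 1 endothelial marker fell. The part of these markers was not tested either. In whole liver, fewer cells of a type and less RNA per cell cannot be told apart. Adipocyte markers, of interest because fat tissue makes fatty acids too, summed to 2.99 to 21.0 CPM over the 60 pigs, with LEP at 0 in every library and ADIPOQ at 0.25 CPM or less. Exocrine pancreas markers summed to 0.516 to 6.53 CPM.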

How the data were processed

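RNA-Seq of liver from 60 pigs was used. Per the paper's methods and the labels, the authors cleaned reads with fastp, mapped them with HISAT2 2.0.5 to Sscrofa11.1, and counted them per gene with featureCounts 1.5.0-p3. The paper describes RPKM, while the deposited values are counts, whole numbers without normalization. StringTie 1.3.3 is also named in the processing notes. Strand handling is not given in the sources used here. The 24 features without a name (0.0084% to 0.0407% of a library) were left out.

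Genes were kept by filterByExpr, scaled by TMM, and tested with estimateDisp, glmQLFit (robust) and glmQLFTest in edgeR 4.0.16 (R 4.3.3), over 6 groups in 1 model and 12 comparisons. Log2 CPM used a prior count of 2. SEs were taken from the log2 fold change and the F statistic. DESeq2 1.42.0 was an alternative. The scripts were tested on simulated data. SD and SE hold both counting error and differences between pigs. Replicates are separate pigs by their labels, apart from the shared identifier and the matching pair described above.

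All 10 members are named. Of each related list, up to 4 genes per comparison were taken by the largest absolute fold change among those that passed with a mean log2 CPM of at least 2, and genes beyond these (ACLY and ACSS2, and in some comparisons SLC25A1, ELOVL1, NR1H3 and INSR) were named after their values were seen. The members, lists and tests were chosen with earlier results of these data known. ACOT1, ACOT2 and IDI1 were not matched, CYP51A1 was matched by its synonym, and of 2 identifiers of INSIG2 the one that passed the filter was used. Sequences were not used here. Some genes of the related lists that passed are not reported here by name.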

Additional observations from a re-analysis of the deposited data

Results flagged for a closer look

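In 40 groups of members and pigs that hold 8 to 10 libraries, 3 had a pig whose distance to the nearest other pig was a larger share of the group's range of log2 CPM than Dixon's 95% limit, where chance gives about 1 in 20. FASN in ENT-BDL replicate 4 was 296 CPM (distance over range 0.49), and the same pig had the lowest SREBF1 of its group (58.3 CPM). ME1 in SLE-sham replicate 6 was 6.45 CPM (0.51). FADS2 in MLE-BDL replicate 1 was 252 CPM (0.67). Without these pigs the calls of the comparisons of groups were the same in number, and ME1 in SLE-BDL against SLE-sham was 0.94 (edgeR adjusted p = 9.77e-04) without SLE-sham replicate 6.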

How the results depend on the processing

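The alternatives were DESeq2, edgeR on the groups compared, RLE factors, TMM without the 10 most abundant genes, no filter, a minimum of 10 counts per pig, the replicate number or the identifier number as a block, a 2-fold threshold, and leaving out single libraries, of which SLE-BDL replicate 7, ENT-BDL replicate 4, SLE-sham replicate 6, and MLE-BDL replicate 1 were chosen after seeing the data. Apart from the 2-fold threshold, each of the 14 calls kept its direction under 17 settings, and 234 of these 238 values kept the call. The 4 others were FADS2 in SLE-sham against ENT-sham, at 0.39 with the replicate block (adjusted p = 0.0667) and 0.29 to 0.40 in the settings given above. With a fold change above 2 required, 0 members remained in each comparison. With the identifier block FADS2 joined in ENT-BDL against ENT-sham, and in SLE-sham against ENT-sham SREBF1 joined while FADS2 was lost. With this block 2 members passed in MLE-BDL against MLE-sham (ELOVL2 joined ME1), 2 in MLE-BDL against ENT-BDL and 2 in MLE-sham against ENT-sham (ACACA joined), and 1 in the SLE minus ENT difference of responses (SREBF1). This last count was also 1 without SLE-BDL replicate 7 (FADS1). With only the groups compared in the fit, 1 member passed in MLE-sham against SLE-sham (FADS1) and SREBF1 passed in SLE-sham against ENT-sham (-0.37, adjusted p = 0.0473). The cause was not tested. Pigs with the same replicate number in different groups correlated at -0.232 to 0.381 (median -0.011, 82 pairs, 20 above 0.1), so the numbers were not used as a pairing, and with the replicate block 4 members passed in ENT-BDL against ENT-sham and 3 in SLE-sham against ENT-sham. Pairs with the same identifier number had a median of 0.129 (177 pairs, 108 above 0.1), against -0.019 for pairs with other identifier numbers (1318 pairs, 119 above 0.1). ME1 rests on few reads, which limits its precision.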
